A study of Mus musculus with 32 samples.

Results

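The RNA of 9 genes of the endocannabinoid system was followed in the mouse striatum. They were the CB1 receptor gene Cnr1, its interactor Cnrip1, the synthesis genes Dagla, Daglb and Napepld, and the breakdown genes Mgll, Abhd6, Abhd12 and Faah. The members were chosen by symbol for these roles, with earlier results of these data known, and make up 9 of 54532 gene rows.

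Endocannabinoids are lipid messengers that are made on demand in a neuron's dendrites and travel back to the CB1 receptors on incoming axons, where they lower transmitter release. Diacylglycerol lipases make 2-arachidonoylglycerol (2-AG), and NAPE-PLD is a source of anandamide. Monoacylglycerol lipase, ABHD6 and ABHD12 break down 2-AG, and fatty acid amide hydrolase breaks down anandamide. In the striatum, CB1 is abundant in the spiny projection neurons and on their axons, and loss of CB1 is a known feature of Huntington's disease and its mouse models.

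Striatal RNA was sequenced from 32 mice at 6 months of age, 8 of each of 4 genotypes. WT mice carried neither allele. Msh3-/- mice were homozygous for a Cas9 deletion of an inner stretch of Msh3, a DNA mismatch repair gene that the expansion of CAG repeats in somatic cells depends on. zQ175 mice carried a knock-in allele of the huntingtin gene with a long CAG repeat, and zQ175:Msh3-/- mice carried both changes. All genotypes came from littermates of 1 cross on the C57BL/6J background, and both alleles were present in every cell from conception. Each genotype had 4 males and 4 females, apart from zQ175:Msh3-/- with 5 males and 3 females. The comparisons asked what the zQ175 allele changes, with and without Msh3, and whether the loss of Msh3 changes it. Counts summed to between 13696875 and 22983977 reads per mouse in WT, 12449707 and 19871631 in Msh3-/-, 12359347 and 25030335 in zQ175, and 12946237 and 18448721 in zQ175:Msh3-/- mice.

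Msh3 itself was read first, as a check on the labels. Its level in CPM, counts scaled to a library of 1000000, had a mean of 24.5 in WT (22.9 to 27.5) and 11.8 in Msh3-/- mice (10.4 to 13.6). With the zQ175 allele the means were 24.4 (22.8 to 27.4) with Msh3 intact and 12.9 (11.1 to 14.2) without. The counts are over the whole gene, and where in it the remaining reads lie was not measured. Every Msh3-/- mouse lay below every WT mouse (log2 fold change -1.06, adjusted p = 2.56e-15, edgeR), and every zQ175:Msh3-/- mouse below every zQ175 mouse (-0.92, adjusted p = 1.42e-13). The tissue was read from 8 genes of spiny projection neurons, of which Ppp1r1b was the most abundant. Their summed level was 11083 ± 832 CPM in WT (mean ± SD, n = 8), 10780 ± 887 in Msh3-/- mice, 6403 ± 514 with the zQ175 allele and 6500 ± 556 with both. All 8 were lower in zQ175 than in WT mice (log2 fold changes -1.18 to -0.35) and in zQ175:Msh3-/- than in Msh3-/- mice (-0.98 to -0.33). In bulk tissue, fewer cells of a type and less RNA per cell cannot be told apart.

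With the zQ175 allele, Cnr1 fell, Faah and Cnrip1 rose, and the other 6 genes did not pass both thresholds, an adjusted p under 0.05 and a change of at least 1.2-fold. So 3 of the 9 genes passed between zQ175 and WT mice, where 11.6% of 16610 tested genes did. The same 3 genes passed between zQ175:Msh3-/- and Msh3-/- mice (10.6% of tested genes) and between zQ175:Msh3-/- and WT mice (12%). The share of the 9 was larger than that of all tested genes, on a count of 3. Since the genes were chosen with earlier results of these data known, this share is not a test of the group. By adjusted p alone, 4 genes passed between zQ175 and WT (26.5% of tested genes) and 3 of the 9 between zQ175:Msh3-/- and Msh3-/- mice (24.1%). Cnr1 was the 1 gene that was lower, against 6.89% of tested genes lower between zQ175 and WT and 5.96% between zQ175:Msh3-/- and Msh3-/- mice. Cnrip1 and Faah were higher, against 4.70% and 4.68% of tested genes. The split of all genes differed between the tests: edgeR on counts called 781 higher and 1144 lower between zQ175 and WT and 778 and 990 between zQ175:Msh3-/- and Msh3-/- mice, while limma on log2(TPM + 0.1), with another scaling and other genes tested, called 1316 and 881, and 1523 and 699. The median log2 fold change of the 9 genes was 0.01 between zQ175 and WT and 0.03 between zQ175:Msh3-/- and Msh3-/- mice, and that of all tested genes was 0.01 in both. The first and the third of these comparisons share the WT mice. The first and the second share no mouse, although all 4 genotypes entered 1 model with 1 estimate of spread. In all 3 comparisons DESeq2 also called 3 of the 9, and limma on TPM called 3, 4 and 4, the 4th being Napepld.

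**Figure D1:**
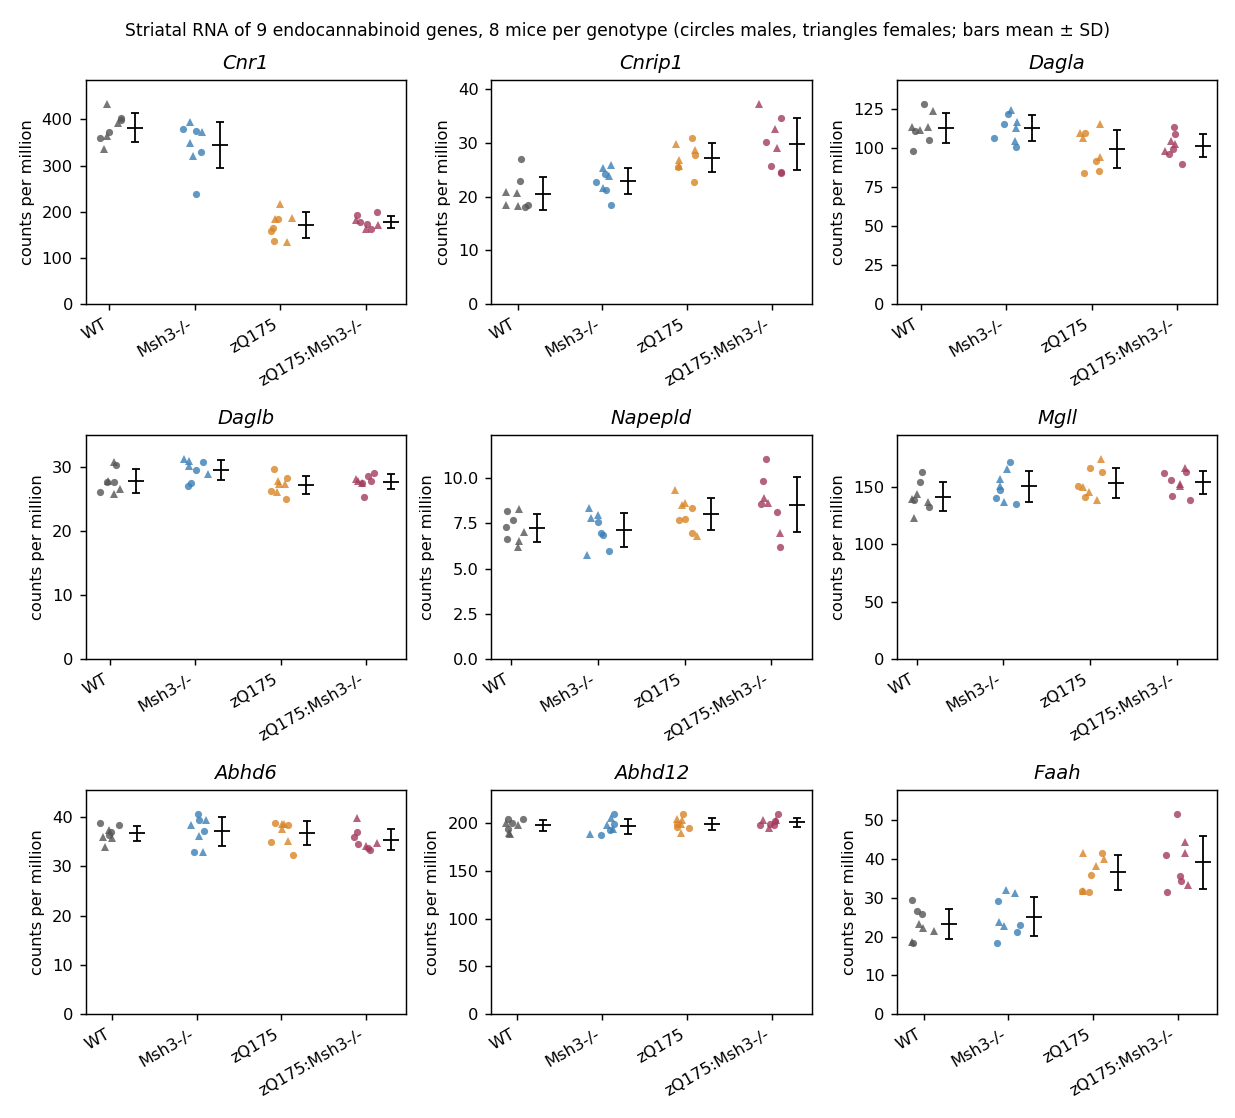
CPM of each of the 9 genes in each mouse, by genotype, on axes that start at 0. Circles are males, triangles females, and bars the mean ± SD of 8 mice. All 16 mice with the zQ175 allele lay below all 16 without it for Cnr1 (highest 218, lowest 238 CPM), and Abhd12 lay between 188 and 210 CPM in all 32.

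Cnr1 (ENSMUSG00000044288, chr4:33924593-33948831 on GRCm38, plus strand) encodes the CB1 receptor, which couples to inhibitory G proteins. It ran from 336 to 434 CPM in WT mice, with a median of 382, and from 134 to 218 in zQ175 mice, with a median of 174. In Msh3-/- mice it ran from 238 to 394 CPM around a median of 361, and in zQ175:Msh3-/- mice from 162 to 199 around 175. No mouse with the zQ175 allele reached the lowest mouse of its control group, and the mean was 44.8% of WT in zQ175 mice and 51.6% of Msh3-/- in zQ175:Msh3-/- mice.

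The promoter of Cnr1 is shown because it is the gene of the 9 that fell furthest. RefSeq (GRCm38.p6) lists 11 promoters for 7 of the 9 genes, 3 of them for Cnr1. The 250 bases before the start farthest upstream, chr4:33924014-33924263 on the plus strand, are printed 5′ to 3′ on the strand of the gene. The gene as annotated in GENCODE M21 begins after this window, at 33924593. Which start is used in the striatum was not measured. Capitals mark GC boxes (GGGCGG, or CCGCCC on the other strand).
Cnr1: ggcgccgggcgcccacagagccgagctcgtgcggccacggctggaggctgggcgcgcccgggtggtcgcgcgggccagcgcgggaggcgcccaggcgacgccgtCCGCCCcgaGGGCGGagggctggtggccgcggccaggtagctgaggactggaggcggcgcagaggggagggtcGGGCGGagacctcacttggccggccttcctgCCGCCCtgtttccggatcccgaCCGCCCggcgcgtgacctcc

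This window holds 5 GC boxes, 36 CpG dinucleotides and 79.2% G and C. Over the same 250 bases of 32851 promoters the medians were 6 CpG and 52.4%, and 32.7% held a GC box. Also searched on both strands were TGACG (in 17.8% of all promoters), CCAAT (33.9%), TATAAA (12.4%) and CACGTG (6.02%), none of which is in the window. The other 2 windows listed for Cnr1 hold no GC box: chr4:33924394-33924643 has 28 CpG, 68.8% G and C and 1 CACGTG, and chr4:33926130-33926379 has 5 CpG and 49.2%.

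The log2 fold change of Cnr1 was -1.16 between zQ175 and WT mice (SE 0.09, 95% confidence interval -1.34 to -0.98, adjusted p = 9.79e-12, edgeR). In mice without Msh3, as zQ175:Msh3-/- against Msh3-/-, it was -0.96 (-1.14 to -0.77, adjusted p = 9e-10). Set against WT, which the first of these used too, zQ175:Msh3-/- mice had a log2 fold change of -1.10 (adjusted p = 3.53e-11). The difference between the effects of the zQ175 allele with and without Msh3 was 0.20 (-0.05 to 0.46, adjusted p = 0.999). Part of it came from 1 mouse: the Msh3-/- mouse male 1 had 238 CPM, while the next lowest of its group had 320. Without it the effect in mice lacking Msh3 was -1.02 (adjusted p = 7.6e-12) and the difference 0.14.

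The fall of Cnr1 was then set against that of the spiny neuron genes in the same mice, as the log2 CPM of Cnr1 minus the mean log2 CPM of the 8 genes. This value ran from -1.90 to -1.55 in WT mice (median -1.63) and from -2.47 to -1.81 in zQ175 mice (median -2.06). The mean difference was -0.41 (-2.08 in zQ175 against -1.67 in WT), and 7 of 8 lay below every WT mouse (exact two-sided permutation p = 0.000622, adjusted p = 0.00124 over 2 comparisons). Cnr1 thus fell further than the mean of these genes, although among them Pde10a had a log2 fold change of -1.18 and Arpp21 of -1.01.

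In mice without Msh3 the same value ran from -2.26 to -1.55 in Msh3-/- mice (median -1.72) and from -2.35 to -1.78 in zQ175:Msh3-/- mice (median -2.03). The groups overlapped, with 1 of 8 zQ175:Msh3-/- mice below every Msh3-/- mouse, and the mean difference was -0.25 (exact permutation p = 0.0247, adjusted p = 0.0247). The lowest Msh3-/- mouse was again male 1, and without it the difference for Cnr1 was -0.32 (adjusted p = 0.00155, exact permutation test). The result depended on the list of genes: without Gng7 the difference was -0.20 (adjusted p = 0.0569), and without Bcl11b -0.21 (adjusted p = 0.0628). Over the other lists tried and the replicate block, the adjusted p for Cnr1 ran from 0.0126 to 0.109. Whether this difference depended on Msh3 was not tested.

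**Figure D2:**
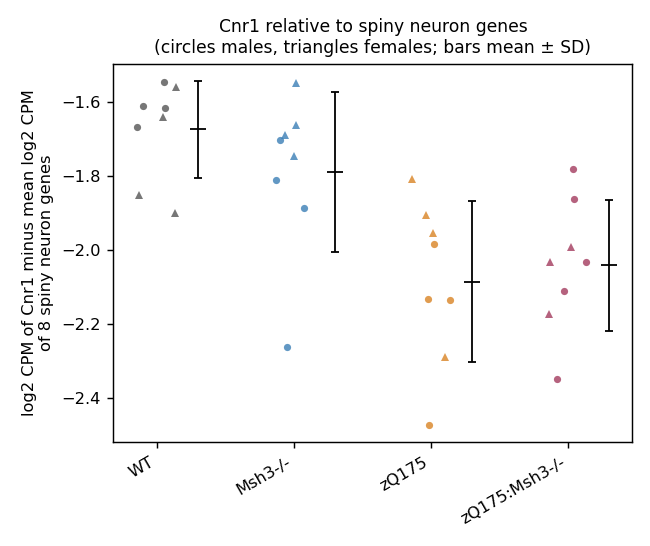
Log2 CPM of Cnr1 minus the mean log2 CPM of 8 spiny neuron genes in each mouse, by genotype. Circles are males, triangles females, and bars the mean ± SD of 8 mice. The means are -1.67 in WT, -1.79 in Msh3-/- mice, -2.08 with the zQ175 allele and -2.04 with both changes, and 1 Msh3-/- mouse lies at -2.26.

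Cnrip1 (ENSMUSG00000044629, chr11:17051586-17079371, plus strand) encodes a protein that binds the tail of the CB1 receptor. It ran from 18.0 to 26.9 CPM in WT mice (median 19.6) and from 22.7 to 30.9 in zQ175 mice (median 27.3). In Msh3-/- mice it ran from 18.5 to 25.9 CPM (median 23.3), and in zQ175:Msh3-/- mice from 24.4 to 37.3 (median 29.6). The groups overlapped: 4 of 8 zQ175 mice lay above every WT mouse, and 5 of 8 zQ175:Msh3-/- mice above every Msh3-/- mouse. Cnrip1 rose by a log2 fold change of 0.40 (0.22 to 0.58, adjusted p = 0.000998) between zQ175 and WT mice. The rise was 0.38 (0.20 to 0.56, adjusted p = 0.00187) between zQ175:Msh3-/- and Msh3-/- mice, and 0.53 (adjusted p = 2.81e-05) against WT. In males alone Cnrip1 did not pass (0.30, adjusted p = 0.208, and 0.37, adjusted p = 0.0821), and a difference between the sexes was not tested. The exons of Cnrip1 share 199 bases with Plek on the opposite strand, which had a mean of 353 counts per mouse against 424 for Cnrip1. Since it is not known whether counting used the strand, reads from Plek in the values of Cnrip1 cannot be told apart. The receptor and its interactor thus moved in opposite directions, and the ratio of Cnr1 to Cnrip1 in TPM was 5.46 ± 1.03 in WT and 1.80 ± 0.296 in zQ175 mice. Without Msh3 it was 4.35 ± 0.827, and 1.75 ± 0.250 with the zQ175 allele added.

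Dagla (ENSMUSG00000035735, chr19:10245265-10304877, minus strand) and Daglb (ENSMUSG00000039206, chr5:143464584-143505942, plus strand) encode the lipases that make 2-AG, the first being the main one at synapses. Dagla ran from 97.8 to 128 CPM in WT and from 84.4 to 116 in zQ175 mice. Its log2 fold change of -0.18 (-0.31 to -0.06) had an adjusted p of 0.0267 by edgeR but lay under 1.2-fold, and the adjusted p ran from 0.0083 to 0.0674 with each mouse left out in turn. In mice without Msh3 it was -0.15 (adjusted p = 0.0756). Daglb had -0.03 and -0.09 in the same comparisons (adjusted p = 0.633 and 0.123). The exons of Daglb share 2309 bases with Rac1 on the opposite strand, which had a mean of 5205 counts per mouse against 476 for Daglb. Whether reads were counted by strand is not given in the sources used here, so reads from Rac1 in the values of Daglb cannot be told apart.

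Napepld (ENSMUSG00000044968, chr5:21662901-21701396, minus strand), which encodes NAPE-PLD, was the least abundant of the 9 genes. It ran from 6.22 to 8.32 CPM in WT, 5.74 to 8.33 in Msh3-/-, 6.78 to 9.36 in zQ175 and 6.18 to 11.1 in zQ175:Msh3-/- mice, and all groups overlapped. The log2 fold change of Napepld was 0.15 (adjusted p = 0.281) between zQ175 and WT and 0.25 (0.06 to 0.45, adjusted p = 0.0511) between zQ175:Msh3-/- and Msh3-/- mice. The latter lies next to both thresholds. Napepld passed them without the Msh3-/- mice female 2, female 3 or female 4 (adjusted p = 0.0433, 0.0474 and 0.0307), or without the zQ175:Msh3-/- mice female 3 or male 2 (0.0273 and 0.0123). It also passed by limma on log2(TPM + 0.1) (0.31, adjusted p = 0.0269), a fit in which all genes had a median log2 fold change of 0.09. With each mouse left out by edgeR, the adjusted p of Napepld ran from 0.0123 to 0.148.

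Mgll (ENSMUSG00000033174, chr6:88724412-88828360, plus strand), Abhd6 (ENSMUSG00000025277, chr14:8002902-8056763, plus strand) and Abhd12 (ENSMUSG00000032046, chr2:150832493-150904741, minus strand) encode the 2-AG hydrolases. Mgll had a log2 fold change of 0.12 (0.01 to 0.23, adjusted p = 0.109) between zQ175 and WT and 0.03 (-0.08 to 0.14, adjusted p = 0.737) between zQ175:Msh3-/- and Msh3-/- mice. Abhd6 had 0.00 (-0.09 to 0.10) and -0.07 (-0.16 to 0.03). Abhd12 had the narrowest intervals of the 9 genes, 0.01 (-0.04 to 0.07) and 0.03 (-0.02 to 0.09). None of the 3 passed the adjusted p by edgeR with all mice. By limma on log2(TPM + 0.1), Mgll passed it between zQ175 and WT (0.18, adjusted p = 0.0174) and Abhd12 in both comparisons (0.07 and 0.10, adjusted p = 0.0496 and 0.00394), all under 1.2-fold. All genes in that fit had a median log2 fold change of 0.07 and 0.09, so the values of Abhd12 were about those of the whole scale. Without the WT mouse male 4, Mgll had 0.15 by edgeR (adjusted p = 0.0372), also under 1.2-fold. As shares of the summed TPM of the 3 hydrolases, Mgll held 24.3% ± 1.58 in WT and 25.7% ± 1.34 in zQ175 mice. Abhd12 held 64.9% ± 1.49 and 63.6% ± 1.21, and Abhd6 10.9% ± 0.417 and 10.7% ± 0.536, so the make-up of the 2-AG hydrolase RNA differed by about the spread between mice. Mgll shares 167 exon bases with an antisense gene with a mean of 16.8 counts per mouse, against 2542 for Mgll.

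Faah (ENSMUSG00000034171, chr4:115967145-116017926, minus strand) encodes the hydrolase of anandamide. It ran from 18.3 to 29.4 CPM in WT mice (median 22.7) and from 31.6 to 41.7 in zQ175 mice (median 37.0). In Msh3-/- mice it ran from 18.4 to 31.9 CPM (median 23.4), and in zQ175:Msh3-/- mice from 31.4 to 51.7 (median 38.2). Every zQ175 mouse lay above every WT mouse, and 7 of 8 zQ175:Msh3-/- mice lay above every Msh3-/- mouse. Faah rose by a log2 fold change of 0.65 (0.42 to 0.89, adjusted p = 7.45e-05) between zQ175 and WT mice. The rise was 0.64 (0.40 to 0.88, adjusted p = 0.000118) between zQ175:Msh3-/- and Msh3-/- mice, and 0.76 (adjusted p = 1.02e-05) against WT. In males alone the first of these was 0.49 (adjusted p = 0.0953) and in females 0.83 (adjusted p = 0.000342), while in mice without Msh3 the males had 0.77 (adjusted p = 0.00825) and the females 0.55 (adjusted p = 0.018). A difference between the sexes in Faah was not tested. The ratio of Faah to Napepld, the anandamide enzymes, was 3.75 ± 0.476 in TPM in WT and 5.30 ± 0.411 in zQ175 mice, and 4.19 ± 1.15 and 5.35 ± 0.422 in their counterparts without Msh3.

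The promoter of Faah, the gene of the 9 that rose furthest, was searched in the same way. RefSeq (GRCm38.p6) places its 250 bases before the start at chr4:116017925-116018174 on the minus strand. They hold 2 GC boxes in capitals (GGGCGG or CCGCCC, in 32.7% of promoters), 9 CpG and 55.6% G and C, and none of the other motifs.
Faah: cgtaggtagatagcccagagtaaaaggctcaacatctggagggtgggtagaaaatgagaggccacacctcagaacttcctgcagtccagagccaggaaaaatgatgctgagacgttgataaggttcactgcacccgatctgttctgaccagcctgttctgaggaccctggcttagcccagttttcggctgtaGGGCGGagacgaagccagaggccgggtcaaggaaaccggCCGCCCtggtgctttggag

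**Figure D3:**
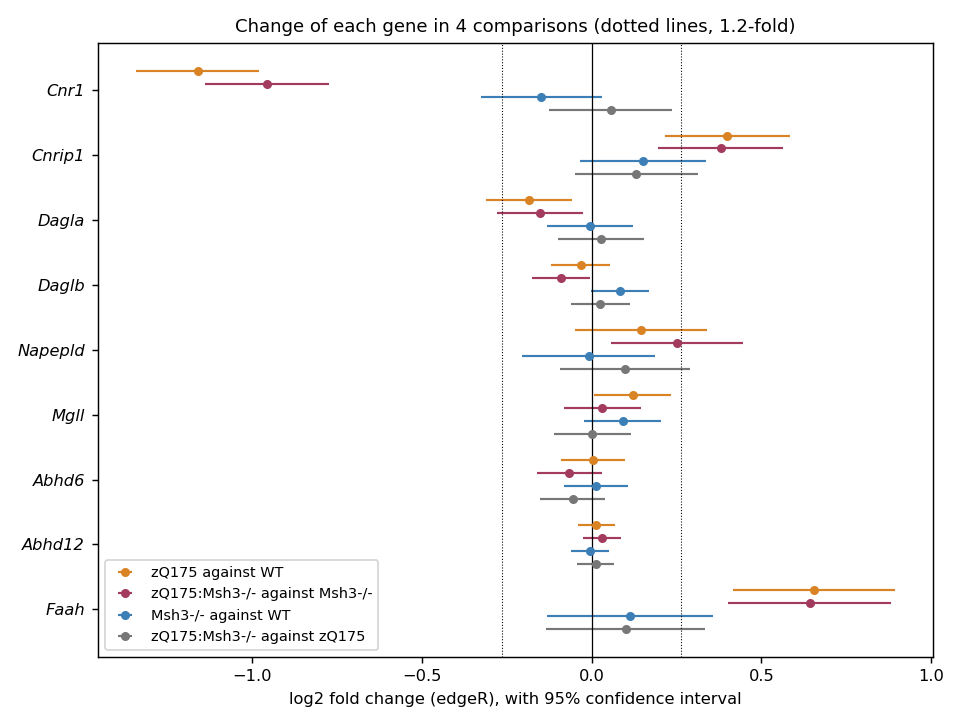
Log2 fold change of each of the 9 genes by edgeR with its 95% confidence interval, in 4 comparisons of 8 mice with 8. Dotted lines mark a 1.2-fold change. With the zQ175 allele Cnr1 lies at -1.16 and -0.96 and Faah at 0.65 and 0.64, while the points for the loss of Msh3 lie between -0.15 and 0.15.

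Within genotypes, Faah and Cnrip1 varied with the level of cortical neuron markers, which differed widely between mice. The summed level of the 6 markers, of which Slc17a7 was the most abundant, was 212 ± 105 CPM in WT (81.7 to 332), 256 ± 139 in Msh3-/- (77.5 to 488), 303 ± 108 in zQ175 (77.1 to 419) and 374 ± 181 in zQ175:Msh3-/- mice (166 to 699). None of the 6 was at 0. Between zQ175 and WT mice 1 of the 6 was called (Cux2, 0.45, adjusted p = 0.0487), by limma as well but not by DESeq2, and leaving out any 1 of 20 of the 32 mice ended the call. In mice without Msh3 0 of 6 were called by edgeR, DESeq2 or limma, and 0 had an unadjusted p under 0.05. There edgeR called 10.6% of all tested genes, and 5803 of 16610 had an unadjusted p under 0.05. Between zQ175 and WT mice it called 11.6%. With so wide a spread between mice, few calls do not show equal marker levels. The markers differed most between zQ175:Msh3-/- and WT mice, with a median log2 fold change of 0.82 against 0.54 and 0.51 in the first and second comparisons, and 1 of 6 was called by each tool (Cux2, 0.57, adjusted p = 0.0114). Of all tested genes, edgeR called 12% there.

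Over the 32 mice, as deviations from the mean of each genotype, the log2 CPM of Faah had a Pearson r of 0.85 (Spearman rho 0.91) with the mean of the 6 cortical markers. Cnrip1 had 0.75 (rho 0.78), Mgll 0.66 and Napepld 0.55, while Cnr1 had 0.30 and Dagla 0.42. Without the mice farthest from the median, zQ175 male 4 and Msh3-/- male 2, r was 0.86 for Faah and 0.70 for Cnrip1. The values of a mouse come from 1 library and are scaled by the same library size.

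Of the mice with the zQ175 allele, 1 had as few of these markers as the lowest controls, and the next lowest had a sum of 166 CPM. The zQ175 mouse male 4 had the lowest Slc17a7 of all mice, 25.5 CPM, and 31.8 CPM of Faah, above every WT mouse. Its Cnrip1, at 22.7 CPM, was the lowest of the zQ175 mice and lay within the WT range. This is a single library. The WT mouse male 2, with 34.3 CPM of Slc17a7, had 18.3 CPM of Faah. A model with the level of the cortical markers as a term, chosen after seeing the data, gave Faah 0.52 (adjusted p = 4.05e-08) between zQ175 and WT and 0.50 (adjusted p = 1.99e-07) between zQ175:Msh3-/- and Msh3-/- mice. Cnrip1 had 0.30 (adjusted p = 0.000338) and 0.27 (adjusted p = 0.00132), and Cnr1 -1.20 and -0.99. The same 3 of 9 genes passed both thresholds in both comparisons. The mean marker sum was itself higher with the zQ175 allele (303 against 212 CPM, and 374 against 256 without Msh3), with overlapping ranges. The part of the cortical markers in the rises of Faah and Cnrip1 was not tested. Over all alternatives without a left-out mouse the adjusted p of Faah ran from 4.05e-08 to 0.0953 and from 1.99e-07 to 0.018, and that of Cnrip1 from 0.000125 to 0.208 and from 0.000405 to 0.0821.

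**Figure D4:**
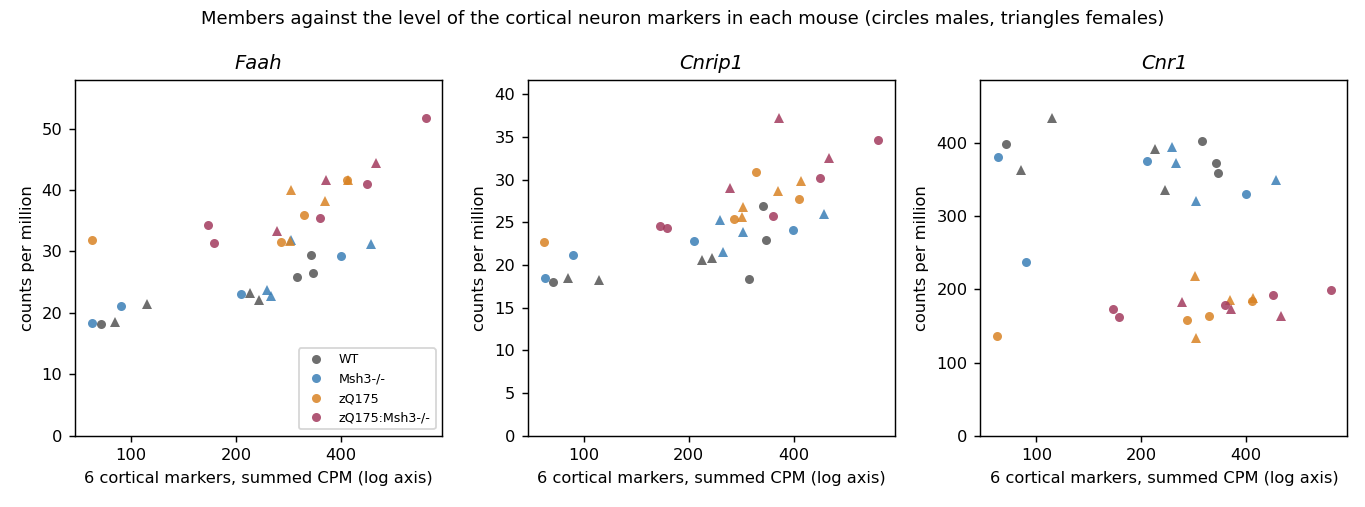
CPM of Faah, Cnrip1 and Cnr1 in each mouse against the summed CPM of 6 cortical neuron markers (log axis). Colours are genotypes, circles males and triangles females. Faah and Cnrip1 increase along the axis within genotypes (r = 0.85 and 0.75), and the zQ175 mouse at 77.1 CPM of markers has 31.8 CPM of Faah, above the WT maximum of 29.4, and 22.7 CPM of Cnrip1, below the WT maximum of 26.9.

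The calls by edgeR in the other marker lists stand against 11.6% of all tested genes between zQ175 and WT mice. At an unadjusted p under 0.05 there were 6063 of all 16610 tested genes. No marker was under 1 CPM in any group. By adjusted p alone, which 26.5% of tested genes passed, the counts were 3 of 6 astrocyte, 1 of 6 oligodendrocyte, 2 of 6 microglial and 4 of 5 endothelial markers. They were 2 of 6 for striatal interneurons, 0 of 3 for CCK cells, 0 of 3 for the thalamus and 1 of 3 for the pallidum. Astrocyte markers summed to 3651 ± 119 CPM in WT and 3067 ± 89.7 in zQ175 mice, with the most abundant, Slc1a2, called lower (-0.30) of 6 by edgeR and DESeq2 but not limma. Oligodendrocyte markers, led by Mbp, summed to 9486 ± 546 and 8673 ± 1442 CPM, with 1 of 6 called (Mobp, -0.33). Microglial markers, led by Csf1r, summed to 276 ± 15.8 and 257 ± 13.3 CPM, with 0 of 6 called by edgeR, DESeq2 or limma (4 at an unadjusted p under 0.05). Endothelial markers, led by Flt1, summed to 164 ± 7.36 and 133 ± 15.3 CPM, with Flt1 (-0.33) and Tek (-0.38) called of 5.

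Markers of striatal interneurons, led by Sst, summed to 304 ± 25.8 CPM in WT and 289 ± 12.8 in zQ175 mice, with Chat called (-0.27) of 6 by edgeR and DESeq2 but not limma. Leaving out any of the WT mice male 2 and female 2 or the zQ175 mice male 3 and female 2 ended that call, and over the other alternatives the count in this list ran from 0 to 2. Of the 3 markers of CCK cells, a cortical interneuron class rich in CB1, Cck was the most abundant, with a mean of 27.8 CPM in WT mice. The sums were 30.6 ± 14.4 and 43.6 ± 15.3 CPM, with 0 called by edgeR, DESeq2 or limma (0 at an unadjusted p under 0.05). The sum is thus mostly Cck, and which cells its reads came from was not measured. Thalamic markers, led by Prox1, summed to 42.5 ± 5.99 and 48.1 ± 6.59 CPM (0 of 3 called by edgeR or DESeq2, 1 by limma, 1 at an unadjusted p under 0.05). Pallidal markers, led by Kcna1, summed to 143 ± 7.69 and 133 ± 14.2 CPM (0 of 3 called by edgeR, DESeq2 or limma, 2 at an unadjusted p under 0.05). In mice without Msh3, where 10.6% of all tested genes were called, edgeR called Chat, Th and Gbx1 in these 8 lists, all lower. There limma also called 1 thalamic marker. The call of Gbx1 ended without any of the Msh3-/- mice male 1 and female 2 or the zQ175:Msh3-/- mice male 1, male 4, male 5 and female 3, and 1 of the 2 interneuron calls without the Msh3-/- mouse male 1. The part of these lists in the results for the 9 genes was not tested.

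The loss of Msh3 was then compared within each huntingtin genotype. Among mice with the zQ175 allele, zQ175:Msh3-/- against zQ175, 0 of 9 genes passed both thresholds by edgeR, DESeq2 or limma, and 0 had an unadjusted p under 0.05, where 0.00602% of tested genes were called, namely Msh3. Between Msh3-/- and WT mice the count was also 0 of 9 by each tool and 0 at an unadjusted p under 0.05 (0.00602% of tested genes, Msh3 again). For the difference of the zQ175 effects with and without Msh3 it was 0 of 9 by each tool and 0 at an unadjusted p under 0.05 (0% of tested genes called). Of all 16610 tested genes, 614, 846 and 737 had an unadjusted p under 0.05 in these comparisons, in the order given.

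The intervals set how large a change by Msh3 could have been missed. Among mice with the zQ175 allele Cnr1 had a log2 fold change of 0.06 (-0.13 to 0.24), Faah 0.10 (-0.13 to 0.33) and Cnrip1 0.13 (-0.05 to 0.31). Between Msh3-/- and WT mice they had -0.15 (-0.33 to 0.03), 0.11 (-0.13 to 0.36) and 0.15 (-0.04 to 0.34). The interval of Cnr1 in zQ175 mice thus ended at 0.24, short of the fall by 1.16 between zQ175 and WT mice. For Faah and Cnrip1, which rose, the ends towards a reversal were -0.13 and -0.05, short of the rises of 0.65 and 0.40. The ends towards a further rise were 0.33 and 0.31, above the 1.2-fold threshold.

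Levels were compared between genes in TPM, which takes account of transcript length. In WT mice the order was Abhd12 (233 ± 8.52 TPM), Cnr1 (154 ± 12.7), Mgll (87.2 ± 8.65), Dagla (46.4 ± 4.06), Abhd6 (39.0 ± 2.17), Cnrip1 (28.9 ± 4.52), Faah (16.3 ± 2.80), Daglb (14.5 ± 1.11) and Napepld (4.34 ± 0.461). The ranges over mice of Dagla and Abhd6, Abhd6 and Cnrip1, and Faah and Daglb overlapped, and those of the other neighbours did not. Msh3-/- mice had the same order, from Abhd12 at 233 ± 7.37 to Napepld at 4.30 ± 0.609 TPM, and there Cnr1 (139 ± 19.4) and Mgll (93.0 ± 7.08) overlapped too.

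With the zQ175 allele Mgll stood above Cnr1, at 98.7 ± 8.23 against 71.7 ± 11.8 TPM in zQ175 mice, where the ranges overlapped, and at 99.4 ± 6.54 against 75.3 ± 5.92 in zQ175:Msh3-/- mice, where they did not. Faah stood clear of Daglb in zQ175 mice (26.5 ± 2.92 against 14.5 ± 0.917 TPM) and in zQ175:Msh3-/- mice (28.8 ± 5.38 against 15.1 ± 0.657). Cnrip1 reached the levels of Dagla and Abhd6, at 39.9 ± 4.00 TPM in zQ175 and 43.8 ± 6.58 in zQ175:Msh3-/- mice, and its range overlapped that of its neighbours Dagla or Abhd6 there. Dagla made up 76.2% ± 1.44 of the TPM of Dagla and Daglb in WT and 74.4% ± 2.17 in zQ175 mice. Abhd12 stayed first (244 ± 6.37 and 249 ± 5.55 TPM) and Napepld last (5.02 ± 0.635 and 5.40 ± 0.975).

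Within genotypes the 9 genes did not vary together as a block. Of their pairs, Cnrip1 and Faah had an r of 0.77 over 32 mice, Cnr1 and Dagla 0.61, Napepld and Faah 0.59, and Mgll and Faah 0.53. Cnr1 had 0.05 with Faah and 0.10 with Cnrip1. Among 16609 other tested genes, those most like Cnr1 in these deviations were Rgs7bp (0.86), Skil (0.83), Gpr139 (0.82), Atp2b1 (0.81) and Prkci (0.77). Faah was most like Olfm1 (0.90) and Ablim1 (0.89), and Cnrip1 like Pter (0.91) and Ak5 (0.90). Dagla was most like Dab2ip (0.87) and Atp2b2 (0.85), and Daglb like Rcc1 (0.66) and Rab4b (0.63). Napepld was most like Rhebl1 (0.75) and Stard4 (0.70), and Mgll like C730002L08Rik (0.78) and Vip (0.77). Abhd6 was most like Arhgap44 (0.75) and Ankrd9 (0.75), and Abhd12 like Eid1 (0.80) and Arpc4 (0.70).

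Around the 9 genes, 46 further genes of endocannabinoid signalling were examined, of which 38 passed the filter on low counts. Cnr2, Gpr18, Gpr119, Trpv1, Plaat5, Ptpn22, Alox15 and Ces1d did not. Between zQ175 and WT mice 8 of 38 passed both thresholds, 6 lower and 2 higher, where 11.6% of tested genes did, and the median log2 fold change was -0.04. Between zQ175:Msh3-/- and Msh3-/- mice the same 8 passed in the same directions, with a median of -0.03 and 10.6% of tested genes called. The share of this list was larger than that of all genes in both, but the list too was chosen with earlier results of these data known. Against WT, zQ175:Msh3-/- mice had 9, the further 1 being Plcb3 (-0.27). In the 2 comparisons of Msh3 loss and in the difference of the zQ175 effects, 0 of 38 passed by edgeR, DESeq2 or limma, with 3 (zQ175:Msh3-/- against zQ175), 0 (Msh3-/- against WT) and 2 at an unadjusted p under 0.05. Of all 16610 tested genes, 614, 846 and 737 were at that level.

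Of 11 genes that drive or restrain 2-AG synthesis, edgeR called 5 between zQ175 and WT and 5 between zQ175:Msh3-/- and Msh3-/- mice, all lower. In both it did not call 6. Of all tested genes, 6.89% and 5.96% were called lower in these comparisons. DESeq2 called 5 and 5 of the 11 there, and limma 4 and 3. Between zQ175:Msh3-/- and WT mice edgeR called 6, all lower. Grm5, which encodes a glutamate receptor that signals through Gq, ran from 396 to 473 CPM in WT and from 259 to 338 in zQ175 mice, with no overlap. Grm5 fell by 0.54 on the log2 scale (adjusted p = 4.41e-12), and by 0.42 in mice without Msh3 (adjusted p = 2.03e-09). Plcb1, which encodes a phospholipase C that Gq activates, fell by 0.60 (adjusted p = 1.96e-13) and by 0.43 (adjusted p = 7.88e-10). Gnaq, the gene of Gq itself, did not fall, with 0.08 (adjusted p = 0.08) and 0.11 (adjusted p = 0.0213), under 1.2-fold.

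Plcb2 fell by 0.37 (adjusted p = 0.00166) and 0.29 (adjusted p = 0.0167), and without the zQ175:Msh3-/- mouse male 4 the latter was -0.24 and no longer past 1.2-fold. Plcb2 did not pass in either sex alone in either comparison, or by limma in the second, and over the alternatives without a left-out mouse its adjusted p ran from 0.00123 to 0.0938 and from 0.0129 to 0.418. Camk2b, a subunit of the kinase that restrains diacylglycerol lipase alpha, fell by 0.33 in both (adjusted p = 1.73e-08 and 1.95e-08). By limma on log2(TPM + 0.1) Camk2b had -0.26 and -0.25, under 1.2-fold.

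Of the other receptors, Gpr55, a receptor for lysophosphatidylinositol that some cannabinoids bind, fell by 0.69 (adjusted p = 0.000515) and by 0.53 (adjusted p = 0.00813), from a level of 3.04 ± 0.599 CPM in WT mice. Gpr55 did not pass in males alone between zQ175 and WT (-0.43, adjusted p = 0.157), or in females alone between zQ175:Msh3-/- and Msh3-/- mice (-0.26, adjusted p = 0.532). None of the 10 genes of receptor coupling and regulation passed both thresholds by edgeR or DESeq2 between zQ175 and WT mice (2 by limma). By edgeR 11.6% of all tested genes did. At an unadjusted p under 0.05 there were 7 of the 10, and 6063 of all 16610 tested genes. Gprasp1, which sorts receptors to lysosomes, had 0.26 (adjusted p = 9.27e-07) just under 1.2-fold. Of the G protein subunits that CB1 couples to, Gnao1 had -0.23 and Gnai1 0.17, both past the adjusted p but under 1.2-fold.

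Of 7 tested genes of N-acylethanolamine synthesis edgeR called 1, Pla2g4e, against 4.70% and 4.68% of all tested genes called higher. Pla2g4e, which makes the precursors of anandamide, rose by 0.52 (adjusted p = 0.0208) and 0.49 (adjusted p = 0.029). In the second comparison DESeq2 also called 1 gene of that list, and limma 0. Of 4 tested genes of breakdown and oxidation edgeR called 1, Ptgs2, against the same shares of all tested genes. Ptgs2, whose product cyclooxygenase-2 oxidises 2-AG and anandamide, rose by 0.57 (adjusted p = 0.00414) and 0.44 (adjusted p = 0.0293). In the second comparison DESeq2 and limma, which were not held to the filter of edgeR, each called 2 of the 6 genes of that list. Both were low, at 2.36 ± 0.507 CPM (Pla2g4e) and 2.47 ± 0.362 CPM (Ptgs2) in WT mice. With the cortical markers in the model, Pla2g4e had log2 fold changes of 0.40 and 0.36 (adjusted p = 0.0572 and 0.0855), and Ptgs2 had 0.36 in the second comparison (adjusted p = 0.0683). Over the alternatives without a left-out mouse the adjusted p of Pla2g4e ran from 0.0179 to 0.306 and from 0.0185 to 0.27, and that of Ptgs2 from 0.00127 to 0.104 and from 0.0145 to 0.36. Of the 4 lipid carriers 0 passed both thresholds by edgeR or DESeq2 between zQ175 and WT mice (1 by limma). By edgeR 11.6% of all tested genes did. At an unadjusted p under 0.05 there were 3 of the 4, and 6063 of all 16610 tested genes.

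Some of these calls lay near the threshold of the adjusted p, and leaving out 1 mouse ended them with fold changes of similar size. Between zQ175 and WT, Pla2g4e had 0.45 without the zQ175 mouse male 2 (adjusted p = 0.0569). In mice without Msh3, Pla2g4e had 0.41 and 0.40 without the Msh3-/- mice male 2 or male 4 (adjusted p = 0.0747 and 0.0727), and 0.45 and 0.44 without the zQ175:Msh3-/- mice male 1 or female 2 (adjusted p = 0.0572 and 0.0662). With each mouse left out, Pla2g4e ran from 0.45 to 0.63 in the first comparison and from 0.40 to 0.57 in the second. Ptgs2 lost its call in the second without the Msh3-/- mice male 2, female 2, female 3 or female 4, or the zQ175:Msh3-/- mice male 1 or male 5 (log2 fold changes 0.36 to 0.41, adjusted p from 0.0555 to 0.0777). With each mouse left out, Ptgs2 ran from 0.36 to 0.55.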

How the data were processed

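Poly(A) RNA of 32 striata was sequenced as paired-end reads. Raw read counts of genes, as deposited by the authors, are whole numbers without normalization. TPM values are as deposited by the authors, who had divided reads by gene length and scaled them to the library; their table is named FPKM, but each column sums to 1000000. The labels name GRCm38.p6. The aligner, the counting program and its strand setting are not given in the sources used here. Genotype, sex and number of each mouse were taken from the labels, and gene symbols and positions from GENCODE M21.

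Counts were tested with edgeR 4.0.16 in R 4.3.3: TMM scaling, a filter on low counts by group (16610 genes kept), robust quasi-likelihood fits, 1 term per genotype and Benjamini-Hochberg adjustment over all tested genes. The common biological coefficient of variation was 0.0985. A call needed an adjusted p under 0.05 and a change of at least 1.2-fold. CPM are counts scaled to a TMM-adjusted library of 1000000. Standard errors and intervals came from the quasi-likelihood F. Cnr1 relative to spiny neuron genes was compared by an exact two-sided permutation test over 12870 arrangements of mice, the smallest p of which is 0.000155. Correlations used deviations from genotype means.

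The alternatives were DESeq2 1.42.0 without independent filtering, limma-trend (limma 3.58.1) on the log2 of TPM with 0.1 or 1 added, where genes averaged 0.1 or more or were not filtered, RLE size factors, count filters of none or 10 reads in all mice, sex as a term, only the groups compared, each sex alone, a block by mouse number, other fold thresholds, each mouse left out, and each spiny neuron gene left out. A further alternative had the level of the cortical markers as a term, and was chosen after seeing the data. The added constant pulls fold changes of weakly expressed genes in TPM towards 0. The methods were also run on simulated data, and the outcome of those runs is not given here. Python 3.11.15 (numpy 2.4.6, pandas 2.3.3, scipy 1.17.1, matplotlib 3.10.9) made the summaries and figures.

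Named genes were the 9 members, Msh3, called genes of the wider list, markers needed to describe each list, and the genes most like each member (5 for Cnr1, 2 for each other). Not every called gene of that list is printed. Other genes of the list were named after their values were seen. The members and lists were chosen with earlier results of these data known. No 2 mice of a genotype had counts alike within sampling noise (chi-square per gene 4.88 to 17.5 over 112 pairs).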

Additional observations from a re-analysis of the deposited data

Results flagged for a closer look

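In 2 of 44 groups of 8 mice, 1 mouse lay far from the others, its gap to the nearest mouse being a larger share of the range of the group than Dixon's test allows. Chance gives about 1 in 20 groups. The first was Cnr1 in the Msh3-/- mouse male 1, at a log2 CPM of 7.8928 (238 CPM, gap 0.59 of the range). Without this mouse the log2 fold change of Cnr1 between Msh3-/- and WT mice was -0.08 in place of -0.15, and between zQ175:Msh3-/- and Msh3-/- mice -1.02 in place of -0.96. The same mouse had 93.3 CPM of the 6 cortical neuron markers, against 77.5 to 488 in its group. The second was Daglb in the zQ175:Msh3-/- mouse male 5, at a log2 CPM of 4.6621 (25.3 CPM, gap 0.58). Daglb passed the test in no comparison, with or without this mouse.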

How the results depend on the processing

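Of 2421 fold changes of the 9 genes under other settings, 2404 kept the call of the reported value, and 106 changed sign with neither value called. The count of 3 of 9 genes between zQ175 and WT mice was 1 in males alone, and ran from 3 to 3 with each mouse left out. With each mouse left out the count was 3 to 4 in the other comparisons of zQ175 and 0 to 0 for the loss of Msh3 and the difference of effects. The 8 of 38 wider genes between zQ175 and WT mice were 5 in males alone, 18 with no fold threshold and 2 at 1.5-fold, and 7 to 11 with each mouse left out. Between zQ175:Msh3-/- and Msh3-/- mice they were 5 in females alone, 15 with no fold threshold and 0 at 1.5-fold, and 6 to 9 with each mouse left out. Each sex alone has fewer mice, and a fold threshold acts by its construction.

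Cnr1 relative to spiny neuron genes ran from -0.45 to -0.36 between zQ175 and WT and from -0.32 to -0.21 between zQ175:Msh3-/- and Msh3-/- mice with each mouse left out. The latter lost its threshold without Gng7 (-0.20, adjusted p = 0.0569) and without Bcl11b (-0.21, adjusted p = 0.0628, exact permutation tests), and the cause was not tested. Mice of the same number and sex in different genotypes had a median correlation of -0.03 over 45 pairs (-0.39 to 0.41, 13 over 0.1), and 6 of 32 mice correlated best with their own number. The labels do not say whether mice of the same number share a litter or batch, and these correlations cannot exclude it. With the number as a block the counts for the 9 genes were 3, 3, 3, 0, 0 and 0 and for the wider genes 8 and 8. Cnr1 relative to spiny neuron genes was -0.41 and -0.27 with the block (adjusted p = 0.0156 and 0.109), and Ptgs2 between zQ175:Msh3-/- and Msh3-/- mice had 0.40 (adjusted p = 0.067).

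At these depths the genes at 2 to 4 CPM, Gpr55, Pla2g4e and Ptgs2, had standard errors of about 0.15 to 0.17 in log2. RNA was measured, not protein, lipid or receptor binding.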
